A study of Mus musculus with 15 samples.

Results

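Transcripts of the loop of Henle, the distal tubule and the collecting duct were followed through folic acid injury of the mouse kidney and treatment with a leptin-neutralizing antibody (LepAb). The list holds 34 genes chosen by name for the tubule cells in which they work, and all of them were found among the 56748 genes of the count table. It was divided into 8 genes of the thick ascending limb, 9 of the distal convoluted tubule, 10 of the collecting duct principal cell and 7 of the intercalated cell. Earlier results of these data were known when the list was chosen, so its counts beside all genes are descriptions. The libraries came from wild-type male C57Bl/6 mice in 5 groups of 3. The kidney mice of all 3 groups were aged 10 to 12 weeks. WTK mice received the bicarbonate vehicle of folic acid, and their labels name no antibody. IgGK mice received 1 dose of folic acid at 200 mg/kg and then control IgG at 10 mg/kg every other day, and LepK mice the same folic acid dose with LepAb at 10 mg/kg. Kidneys were taken on day 28. IgGL and LepL are lungs of 12-week-old mice taken on day 14 after intratracheal bleomycin at 1.5 units/kg, with control IgG or LepAb at 10 mg/kg, and no vehicle lung was analysed here.

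The tubule beyond the proximal segment fine-tunes the urine. The thick ascending limb takes up salt without water, the distal convoluted tubule adds sodium chloride and magnesium transport, and the collecting duct sets water and sodium excretion through its principal cells and acid-base balance through its intercalated cells. Diuretic drugs and the hormones vasopressin and aldosterone act on several of these proteins, and folic acid at high dose injures tubules and leaves fibrosis.

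Levels are given as CPM, read counts as a share of the library total after TMM scaling (the trimmed mean of M values, which sets libraries to a common scale), and, where genes are compared with each other, as the deposited FPKM (fragments per kilobase of gene length and library size). The defining markers were at the level of the labelled organ: *Umod* ranged from 833 to 1185 CPM, *Slc12a3* from 635 to 1557 CPM and *Aqp2* from 395 to 831 CPM in the 9 kidney libraries, against at most 0.050, 0.720 and 1.37 CPM in the 6 lung libraries. Total counts lay between 25913969 and 32321976 in kidney and between 29974718 and 38924788 in lung. Differences were tested with edgeR's quasi-likelihood test, p-values were adjusted over all genes tested, and a gene was called when its adjusted p was under 0.05 and its log2 fold change over 0.5 in size. CPM values carry the SD and log2 fold changes the SE, with n = 3 in each group. Overlap of libraries between groups is given as a description only, and the share of all genes without overlap was not counted. The study describes the lung libraries as separate mice and gives the kidney libraries only as a number per group, and the p-values measure the spread between these libraries. In RNA from whole organs, fewer cells of a type and less RNA per cell cannot be told apart.

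In WTK kidney the list spanned a wide range of levels per length. *Fxyd2*, a regulatory subunit of the sodium pump, stood highest with a mean of 508 FPKM (range 504 to 515). *Umod*, which encodes the main urinary protein uromodulin, followed at 325 FPKM (range 322 to 331), and *Aqp2*, the vasopressin-regulated water channel, came next at 284 FPKM (range 230 to 322). The ranges of *Umod* and *Aqp2* overlapped, and that of *Fxyd2* lay above both. In all, 25 of the 34 genes reached 10 FPKM. *Trpm6*, the magnesium channel of the distal convoluted tubule, had 2.08 FPKM, and *Avpr2*, the vasopressin receptor of the principal cell, was last with 0.071 FPKM. *Avpr2* (GRCm39, chromosome X, 72935708 to 72939108) overlaps *L1cam* and *Arhgap4* on the opposite strand and had a mean of 16.3 reads a kidney library, whereas those neighbours had 1709 and 391. The libraries do not record strand, so its reads cannot be separated from theirs, and its values are given only here: 0.249, 0.237 and 0.252 CPM in WTK, 0.659, 0.800 and 0.780 CPM in IgGK and 0.198, 1.44 and 0.148 CPM in LepK, with LepK replicate 2 apart from the other LepK libraries. *Scnn1b* with *Cog7*, *Atp6v0a4* with *D630045J12Rik* and *Tmem213*, and *Rhcg* with *Gm45170* also overlap an expressed neighbour between gene start and end. *Cog7* and *Tmem213* lie on the opposite strand, *D630045J12Rik* and *Gm45170* on the same strand. Whether the transcripts share sequence, and how far the counts are affected, was not tested.

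Promoter sequence was read from RefSeq on GRCm38.p6, an older build than the GRCm39 of the counts, for the 27 of 34 genes found there. Each window has 300 bases, most of them before the transcription start. Binding letters were searched on both strands for 3 kinds of factor that work in these cells: GTTAAT for the HNF1 family, AAGGTCA for the estrogen-related receptors and GTAAACA for the forkhead family, to which *Foxi1* belongs. A gene was counted when any of its windows matched, whereas the percents are over single windows, so counts and percents are not like for like. The HNF1 letters were present in windows of 4 of the 27 genes (*Umod*, *Cldn10*, *Kcnj16* and *Atp6v0a4*) and in 7.1% of all 32851 windows. The AAGGTCA letters were found for 1 gene, *Kcnj16*, against 4.72% of all windows, and the forkhead letters for 3 genes, *Slc12a1*, *Avpr2* and *Atp6v1b1*, against 3.65% of all windows. The windows with the HNF1 letters are printed with that of *Slc12a3*, which holds none of the 3, because *Cldn10*, *Kcnj16*, *Atp6v0a4* and *Slc12a3* were all lower in IgGK than in WTK while *Umod* was not called. Matches are in capitals.
*Umod* (chr7:119479213-119479512, minus strand): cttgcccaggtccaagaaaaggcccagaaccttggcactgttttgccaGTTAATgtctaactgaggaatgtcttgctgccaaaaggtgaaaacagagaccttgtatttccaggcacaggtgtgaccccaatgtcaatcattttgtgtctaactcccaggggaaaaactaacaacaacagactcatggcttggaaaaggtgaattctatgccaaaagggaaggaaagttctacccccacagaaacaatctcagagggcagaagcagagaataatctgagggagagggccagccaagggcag
*Cldn10* (chr14:118787621-118787920, plus strand): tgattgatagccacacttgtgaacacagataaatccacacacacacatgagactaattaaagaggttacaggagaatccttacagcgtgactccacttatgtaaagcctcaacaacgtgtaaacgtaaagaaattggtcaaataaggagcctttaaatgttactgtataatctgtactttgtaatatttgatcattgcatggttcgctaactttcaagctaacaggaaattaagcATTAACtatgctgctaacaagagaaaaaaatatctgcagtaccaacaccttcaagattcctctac
*Kcnj16* (chr11:110967783-110968082, plus strand): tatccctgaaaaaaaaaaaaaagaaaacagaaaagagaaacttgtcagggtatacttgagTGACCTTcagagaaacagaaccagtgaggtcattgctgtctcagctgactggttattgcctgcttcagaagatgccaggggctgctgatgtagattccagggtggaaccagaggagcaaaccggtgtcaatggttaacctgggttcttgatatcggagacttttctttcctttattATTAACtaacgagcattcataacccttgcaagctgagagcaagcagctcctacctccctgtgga
*Atp6v0a4* (chr6:38124537-38124836, minus strand): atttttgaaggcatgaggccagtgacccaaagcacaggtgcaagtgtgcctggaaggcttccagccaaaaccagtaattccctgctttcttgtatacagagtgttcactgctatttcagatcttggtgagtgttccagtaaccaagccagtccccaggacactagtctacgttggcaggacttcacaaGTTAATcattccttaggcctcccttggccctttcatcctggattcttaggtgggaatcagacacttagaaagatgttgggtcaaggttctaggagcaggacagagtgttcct
*Slc12a3* (chr8:94328958-94329257, plus strand): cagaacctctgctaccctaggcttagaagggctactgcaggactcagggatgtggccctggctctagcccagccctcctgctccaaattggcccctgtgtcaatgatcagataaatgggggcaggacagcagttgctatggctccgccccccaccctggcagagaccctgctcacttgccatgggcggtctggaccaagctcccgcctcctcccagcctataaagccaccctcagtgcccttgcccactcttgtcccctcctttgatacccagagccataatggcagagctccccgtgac
In *Umod* the HNF1 letters begin 202 bases before the start, in *Atp6v0a4* 62 bases before it, in *Cldn10* 15 and in *Kcnj16* 14. In *Kcnj16* the AAGGTCA letters lie further out, 190 bases before the start. A match of letters is a description of the window, not a measured binding site. *Foxi1*, the transcription factor of intercalated cells, was not called in IgGK against WTK (27.4 ± 2.3 against 30.7 ± 3.8 CPM).

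After folic acid, more genes of the list fell than rose. The study's methods have mice given vehicle or folic acid and then an antibody or control IgG, but the WTK labels name neither, so whether WTK mice had IgG is not known from these sources and, if they had none, folic acid and IgG cannot be told apart here. In IgGK against WTK, 14 of the 34 genes fell, against 15.6% of the 19593 genes tested, and 2 rose, against 21.7%. The median log2 fold change of the 34 genes was -0.33, beside 0.04 for all genes tested, and under scaling by library size alone, which moves the median of all genes to 0.48, the members' median turned to 0.11 and 7 fell and 5 rose. *Cldn10*, *Wnk4*, *Aqp3*, *Scnn1a*, *Slc4a1*, *Slc4a9* and *Rhcg* were not called lower under that scaling. With the adjusted p alone, whatever the fold, 18 genes were lower and 3 higher, against 25.7% and 27.3% of all genes. By segment, 5 of 9 distal convoluted tubule genes (median -0.62), 5 of 7 intercalated cell genes (median -0.67), 3 of 10 principal cell genes (median -0.18) and 1 of 8 thick ascending limb genes (median -0.13) fell, and both genes that rose belong to the thick ascending limb. Whether the segments differ was not tested.

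In LepK against IgGK every called gene of the list was higher. There were 13 of 34 genes higher under LepAb, against 4.38% of all genes tested, and 0 were lower, against 5.99%, by edgeR. DESeq2 likewise called 0 lower, and 0 members were lower at an unadjusted p under 0.05. The median log2 fold change was 0.42, beside -0.01 for all genes, and library size scaling, which moves the median of all genes to -0.19, left the members' median at 0.24 and called 6 genes. *Slc12a1*, *Slc12a3*, *Wnk4*, *Fxyd2*, *Scnn1a*, *Fxyd4* and *Slc4a9* were not among those 6. The adjusted p alone gave 25 higher genes and 0 lower, against 11% and 9.57% of all genes. All 4 segments took part, with 1 thick ascending limb gene, 4 distal convoluted tubule genes, 4 principal cell genes and 4 intercalated cell genes called higher. Both comparisons use the IgGK libraries, so a chance high or low level there enters both.

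**Figure D1:**
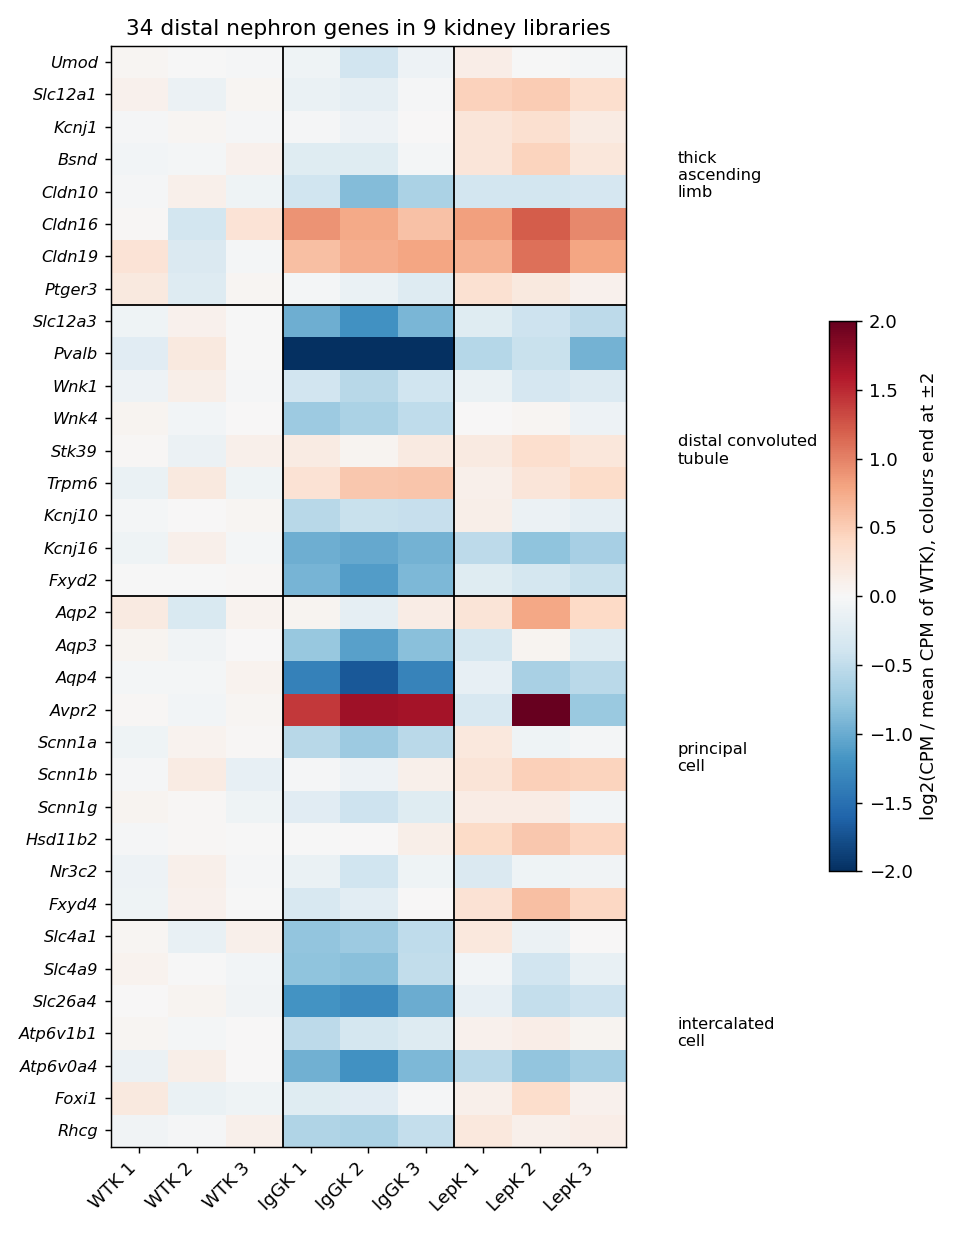
Level of each of the 34 genes (rows, by segment) in each of the 9 kidney libraries (columns), as log2 of the CPM over the mean of the WTK libraries; blue is lower and red higher, and the colours end at 2 on either side. The distal convoluted tubule and intercalated cell rows are mostly blue in the 3 IgGK libraries and paler in the 3 LepK libraries, *Cldn16* and *Cldn19* are red in both, and *Avpr2* rests on few reads.

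Other cell types moved with the same groups. The summed level of 15 proximal tubule genes was 66900 to 69900 CPM in WTK, 16570 to 25340 CPM in IgGK and 34480 to 46450 CPM in LepK, and 15 of 15 fell in IgGK against WTK (median log2 fold change -1.59) and 13 of 15 rose in LepK against IgGK (0.69). The 12 macrophage genes summed to 219 to 255 CPM in WTK, 2021 to 2601 CPM in IgGK and 709 to 1056 CPM in LepK. The 10 fibroblast genes summed to 229 to 294, 1506 to 1715 and 576 to 926 CPM, and the 10 injured tubule genes to 739 to 778, 7300 to 7736 and 3268 to 4713 CPM in the same order. All 12 macrophage and 10 fibroblast genes and 9 of the 10 injured tubule genes rose in IgGK, and 11, 8 and 7 of them fell in LepK against IgGK. Of 8 endothelial genes 4 fell in IgGK, and of 8 podocyte genes 4 rose and 1 fell. The part of these cells in the levels of the distal genes was not tested. Summed over each segment, IgGK libraries held 49.1% to 56.6% of the WTK mean for the distal convoluted tubule, 56.8% to 66.6% for the intercalated cell, 77.8% to 92.5% for the principal cell and 81.9% to 94.8% for the thick ascending limb. The corresponding LepK ranges were 73.3% to 84.6%, 83.9% to 93.6%, 113% to 137% and 108% to 118%. No IgGK library reached the lowest LepK library in any of the 4 sums. Of the distal convoluted tubule sum, 5201 to 5490 CPM in WTK, *Fxyd2* averaged 2462 CPM and is also made in other tubule segments.

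**Figure D2:**
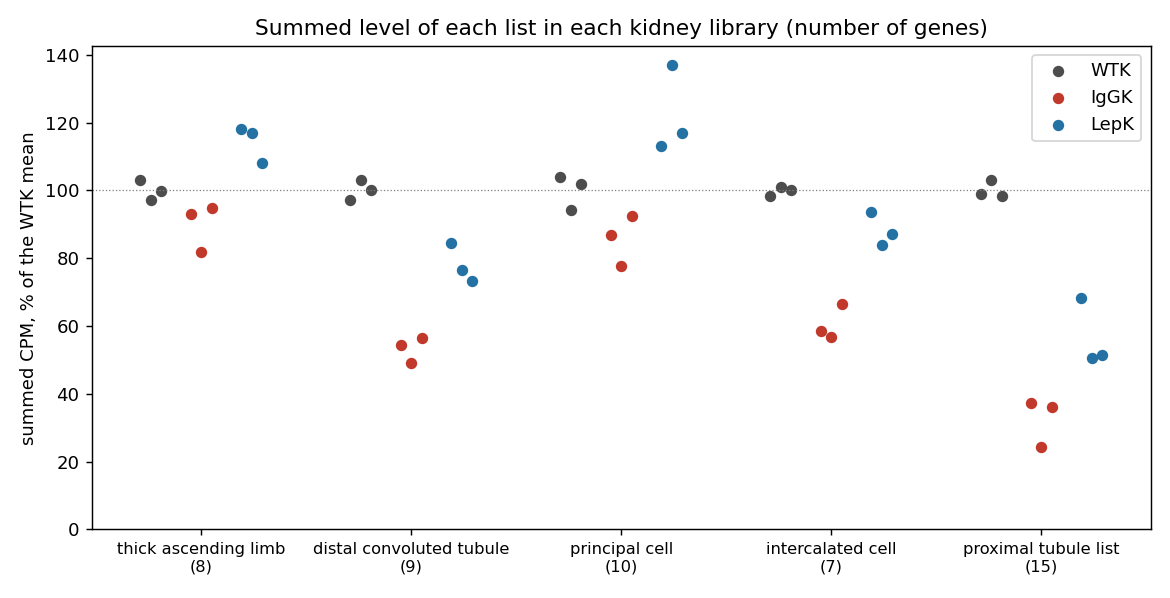
Summed CPM of the members of each segment, and of the 15 proximal tubule genes, in each kidney library as percent of the WTK mean (points; the number of genes is in brackets). The IgGK points lie lowest in every column, from 24.3% to 37.2% for the proximal tubule list up to 81.9% to 94.8% for the thick ascending limb, and LepK points of the thick ascending limb and the principal cell lie above 100%.

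In the thick ascending limb none of the salt transport genes was called after folic acid, and 1 was called higher under LepAb. *Umod* (chromosome 7, 119061934 to 119078505) had 1110, 1076 and 1073 CPM in WTK, 1019, 833 and 1015 CPM in IgGK and 1185, 1082 and 1055 CPM in LepK. The IgGK libraries lay below all others, but neither difference was called (log2 fold change -0.18 ± 0.085 and 0.21 ± 0.085, adjusted p = 0.0858 and 0.101 by edgeR), and the former turned to 0.25 under library size scaling. *Slc12a1*, the sodium-potassium-chloride cotransporter that loop diuretics block, had 728, 634 and 704 CPM in WTK, 629, 609 and 677 CPM in IgGK and 948, 982 and 865 CPM in LepK. Its WTK and IgGK libraries overlapped (-0.11 ± 0.078, turning to 0.33 under library size scaling), and its LepK libraries stood above every other kidney library, with a log2 fold change of 0.55 ± 0.078 against IgGK (adjusted p = 7.37e-04 by edgeR). The potassium channel gene *Kcnj1*, the chloride channel subunit gene *Bsnd* and the prostaglandin receptor gene *Ptger3* were not called in either comparison. Their mean levels in WTK, IgGK and LepK were 135, 132 and 161 CPM, 60.9, 54.1 and 75.4 CPM, and 25.8, 23.4 and 29.6 CPM. In all 3 every LepK library lay above every IgGK library, a separation not counted over all genes. Their rises were under the fold threshold (0.29 ± 0.064, 0.48 ± 0.081 and 0.34 ± 0.11, adjusted p = 0.00798, 0.00182 and 0.0483 by edgeR).

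The claudins of the same segment, which form its ion-selective tight junctions, were called in both directions. The *Cldn10* protein of this segment lets sodium pass. *Cldn10* had 142, 154 and 135 CPM in WTK, 108, 78.5 and 92.8 CPM in IgGK and 111, 112 and 114 CPM in LepK. It fell in IgGK (-0.62 ± 0.099, adjusted p = 1.67e-04 by edgeR) and was not called in LepK against IgGK (0.27 ± 0.099, adjusted p = 0.0801), and its 3 groups did not overlap. *Cldn16* and *Cldn19*, whose proteins together carry magnesium and calcium, were the 2 genes of the list that rose. *Cldn16* had 5.69, 4.34 and 6.82 CPM in WTK, 10.4, 9.46 and 8.44 CPM in IgGK and 9.91, 13.0 and 10.9 CPM in LepK. *Cldn19* had 39.5, 26.6 and 31.9 CPM in WTK, 49.7, 54.0 and 56.5 CPM in IgGK and 53.1, 69.7 and 56.2 CPM in LepK. For both, every injured library exceeded every WTK library while IgGK and LepK overlapped. The log2 fold changes in IgGK against WTK were 0.75 ± 0.18 and 0.71 ± 0.13 (adjusted p = 0.00348 and 5.98e-04 by edgeR), and in LepK against IgGK 0.26 ± 0.17 and 0.16 ± 0.13, neither called, the last of them turning to -0.02 under library size scaling.

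The distal convoluted tubule held the largest fall of the list. *Slc12a3* (chromosome 8, 95055829 to 95092842), the sodium chloride cotransporter that thiazides block, had 1381, 1557 and 1460 CPM in WTK, 743, 634 and 780 CPM in IgGK and 1236, 1095 and 1023 CPM in LepK. The groups did not overlap: the level was 2.04-fold lower in IgGK than in WTK (-1.03 ± 0.095, adjusted p = 1.86e-06) and 1.55-fold higher in LepK than in IgGK (0.64 ± 0.095, adjusted p = 9.12e-04, edgeR). *Pvalb*, the calcium-binding protein parvalbumin of the early part of the segment, had 22.9, 30.6 and 26.5 CPM in WTK, 4.45, 3.97 and 5.35 CPM in IgGK and 17.9, 19.5 and 13.8 CPM in LepK. This was 5.81-fold lower in IgGK (-2.54 ± 0.16, adjusted p = 1.39e-07) and 3.73-fold higher in LepK than in IgGK (1.90 ± 0.16, adjusted p = 6.42e-05, edgeR), the largest change of a called member in both comparisons.

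The ion pump and potassium channel subunits of the basolateral membrane followed the same order with smaller steps. *Fxyd2*, which is also made in other tubule segments, had 2458, 2440 and 2489 CPM in WTK, 1286, 1137 and 1326 CPM in IgGK and 2085, 1921 and 1802 CPM in LepK. *Kcnj16* had 590, 671 and 608 CPM in WTK, 318, 308 and 323 CPM in IgGK and 433, 358 and 393 CPM in LepK. In both genes the 3 groups were separate, with IgGK lowest. *Fxyd2* fell in IgGK (-0.98 ± 0.079) and rose in LepK (0.63 ± 0.079, adjusted p = 3.80e-04 by edgeR), whereas *Kcnj16* fell (-0.98 ± 0.081) and then differed by 0.32 ± 0.080 (adjusted p = 0.0149), under the fold threshold. Its channel partner *Kcnj10* averaged 56.2, 40.1 and 54.0 CPM in WTK, IgGK and LepK, with IgGK lowest without overlap and both differences under the fold threshold.

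Of the 3 kinases that control the cotransporter, 1 was called. *Wnk4* had 293, 271 and 283 CPM in WTK, 170, 182 and 198 CPM in IgGK and 285, 289 and 264 CPM in LepK. It fell in IgGK (-0.62 ± 0.073, adjusted p = 1.26e-05) and rose in LepK (0.61 ± 0.073, adjusted p = 3.00e-04, edgeR), and its LepK and WTK libraries overlapped. *Wnk1* averaged 380, 280 and 322 CPM and *Stk39*, the kinase downstream of both, 30.4, 33.4 and 36.3 CPM in WTK, IgGK and LepK; neither passed both thresholds in these comparisons, although all IgGK libraries of *Wnk1* lay below all WTK and LepK libraries. *Trpm6* averaged 19.5, 27.0 and 23.0 CPM, higher in every IgGK than in every WTK library but under the fold threshold.

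**Figure D3:**
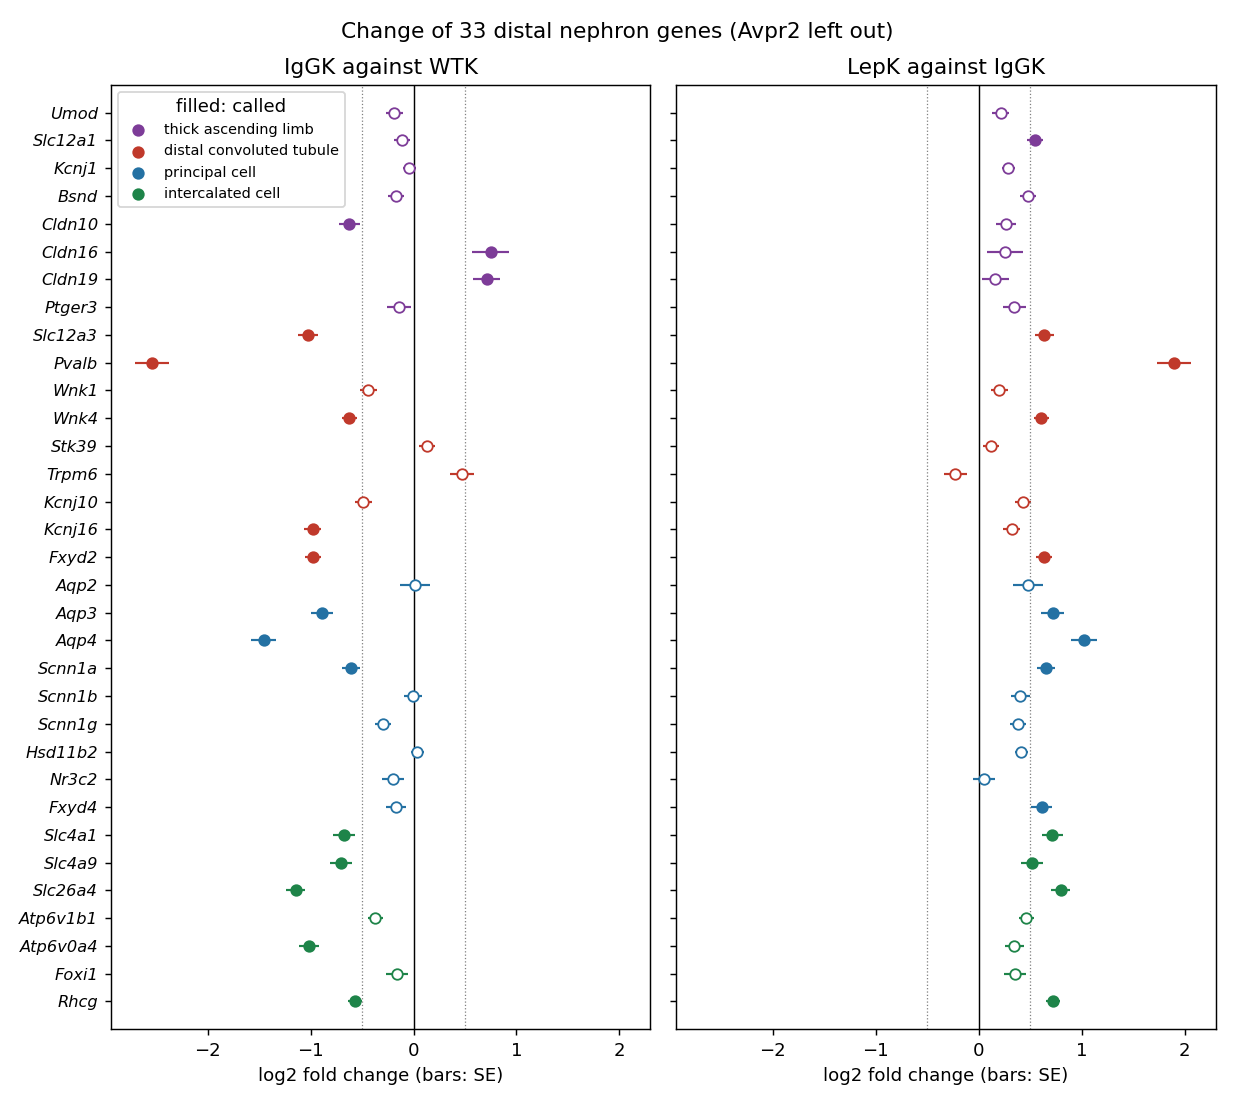
Log2 fold change with its SE (bars) for 33 members in IgGK against WTK (left) and LepK against IgGK (right), coloured by segment; filled points were called and dotted lines mark 0.5 on either side of 0. *Pvalb* lies farthest out in both panels (-2.54 and 1.90), and the called points of the right panel are all above 0.

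Among principal cell genes the water channels differed from one another. *Aqp2* (chromosome 15, 99476936 to 99482428), the channel that vasopressin brings to the luminal membrane, had 555, 395 and 512 CPM in WTK, 505, 428 and 541 CPM in IgGK and 582, 831 and 641 CPM in LepK. WTK and IgGK overlapped (0.012 ± 0.15, adjusted p = 0.956 by edgeR). All LepK libraries were higher than both, by 0.48 ± 0.15 against IgGK (adjusted p = 0.0360), which missed the fold threshold. The channels of the opposite membrane fell. *Aqp3* had 199, 182 and 193 CPM in WTK, 113, 89.7 and 108 CPM in IgGK and 151, 199 and 161 CPM in LepK, and it fell in IgGK and rose in LepK (-0.89 ± 0.11 and 0.72 ± 0.11 on the log2 scale, adjusted p = 1.87e-05 and 9.86e-04, edgeR). *Aqp4* had 74.0, 73.8 and 79.1 CPM in WTK, 29.6, 23.2 and 29.9 CPM in IgGK and 67.5, 48.3 and 52.0 CPM in LepK, 2.74-fold lower in IgGK and 2.03-fold higher in LepK than in IgGK (-1.46 ± 0.13 and 1.02 ± 0.12, adjusted p = 1.04e-06 and 3.36e-04, edgeR). In both, no IgGK library reached a WTK or LepK library. The rise of *Aqp3* was not called with kidney and lung in 1 fit (0.72, adjusted p = 0.0735, edgeR).

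The epithelial sodium channel is built from 3 subunits, and 1 of the 3 transcripts was called. *Scnn1a* had 134, 149 and 145 CPM in WTK, 96.8, 86.2 and 97.8 CPM in IgGK and 166, 135 and 139 CPM in LepK. It fell in IgGK (-0.61 ± 0.087, adjusted p = 7.12e-05) and rose in LepK (0.65 ± 0.087, adjusted p = 5.35e-04, edgeR), whose libraries overlapped WTK. *Scnn1b* averaged 73.3, 73.1 and 96.7 CPM and *Scnn1g* 52.2, 42.6 and 55.4 CPM in WTK, IgGK and LepK, and neither passed the fold threshold. *Hsd11b2*, the enzyme that shields the mineralocorticoid receptor from glucocorticoid, had 243, 252 and 247 CPM in WTK, 245, 248 and 269 CPM in IgGK and 323, 360 and 333 CPM in LepK. WTK and IgGK overlapped (0.038 ± 0.067), and LepK libraries were all higher than both, by 0.41 ± 0.067 against IgGK (adjusted p = 0.00132 by edgeR), under the fold threshold. *Fxyd4*, another regulator of the sodium pump, had 58.3, 65.1 and 61.3 CPM in WTK, 49.4, 53.1 and 62.0 CPM in IgGK and 75.3, 93.8 and 82.0 CPM in LepK, and it rose in LepK (0.61 ± 0.098, adjusted p = 0.00128 by edgeR) without a call in IgGK against WTK (-0.17 ± 0.098, turning to 0.27 under library size scaling). The receptor itself, *Nr3c2*, averaged 18.7, 16.3 and 16.9 CPM and was not called.

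All 3 anion exchanger genes of the intercalated cell fell in IgGK and were higher in LepK than in IgGK. *Slc26a4* (chromosome 12, 31569826 to 31609968), the chloride-bicarbonate exchanger pendrin of the base-secreting type, had 95.2, 97.8 and 90.1 CPM in WTK, 41.1, 39.6 and 47.5 CPM in IgGK and 83.9, 67.8 and 70.9 CPM in LepK. It was 2.21-fold lower in IgGK (-1.14 ± 0.092, adjusted p = 6.50e-07) and 1.74-fold higher in LepK than in IgGK (0.80 ± 0.092, adjusted p = 2.44e-04, edgeR), and the 3 groups were separate. *Slc4a1*, the exchanger of the acid-secreting type, had 44.2, 39.0 and 46.3 CPM in WTK, 24.8, 25.9 and 30.3 CPM in IgGK and 49.9, 39.6 and 43.5 CPM in LepK, and it fell in IgGK and rose in LepK (-0.67 ± 0.10 and 0.71 ± 0.10, adjusted p = 1.39e-04 and 8.35e-04, edgeR). *Slc4a9*, a further exchanger of this family, had 136, 128 and 124 CPM in WTK, 73.8, 72.1 and 92.4 CPM in IgGK and 124, 99.7 and 117 CPM in LepK. It fell in IgGK and rose in LepK (-0.70 ± 0.10 and 0.52 ± 0.10, adjusted p = 8.59e-05 and 0.00431, edgeR). The rise lay at the fold threshold and was no longer called without IgGK replicate 1 (0.48), IgGK replicate 2 (0.45), LepK replicate 1 (0.45) or LepK replicate 3 (0.50).

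The ammonia channel gene was called in both comparisons, 1 proton pump subunit in the former, and the other in neither. *Rhcg*, which passes ammonia into the urine, had 156, 161 and 175 CPM in WTK, 108, 105 and 118 CPM in IgGK and 190, 176 and 181 CPM in LepK. IgGK levels were lower (-0.57 ± 0.071, adjusted p = 2.17e-05) and LepK levels higher than those of IgGK (0.72 ± 0.071, adjusted p = 1.11e-04, edgeR), where every library exceeded every WTK library. *Atp6v0a4*, a membrane subunit of the proton pump, had 244, 287 and 266 CPM in WTK, 137, 115 and 143 CPM in IgGK and 182, 153 and 166 CPM in LepK. *Atp6v1b1*, a cytosolic subunit of the same pump, had 138, 132 and 135 CPM in WTK, 93.8, 106 and 113 CPM in IgGK and 143, 147 and 140 CPM in LepK. IgGK was lowest for both without overlap, but only the membrane subunit passed the fold threshold in IgGK against WTK (-1.01 ± 0.097 against -0.37 ± 0.072, adjusted p = 2.39e-06 and 7.39e-04, edgeR, the latter turning to 0.07 under library size scaling). In LepK against IgGK the values were 0.35 ± 0.096 and 0.46 ± 0.072, neither past the fold threshold. *Foxi1* had a LepK mean of 34.9 CPM, also not called.

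**Figure D4:**
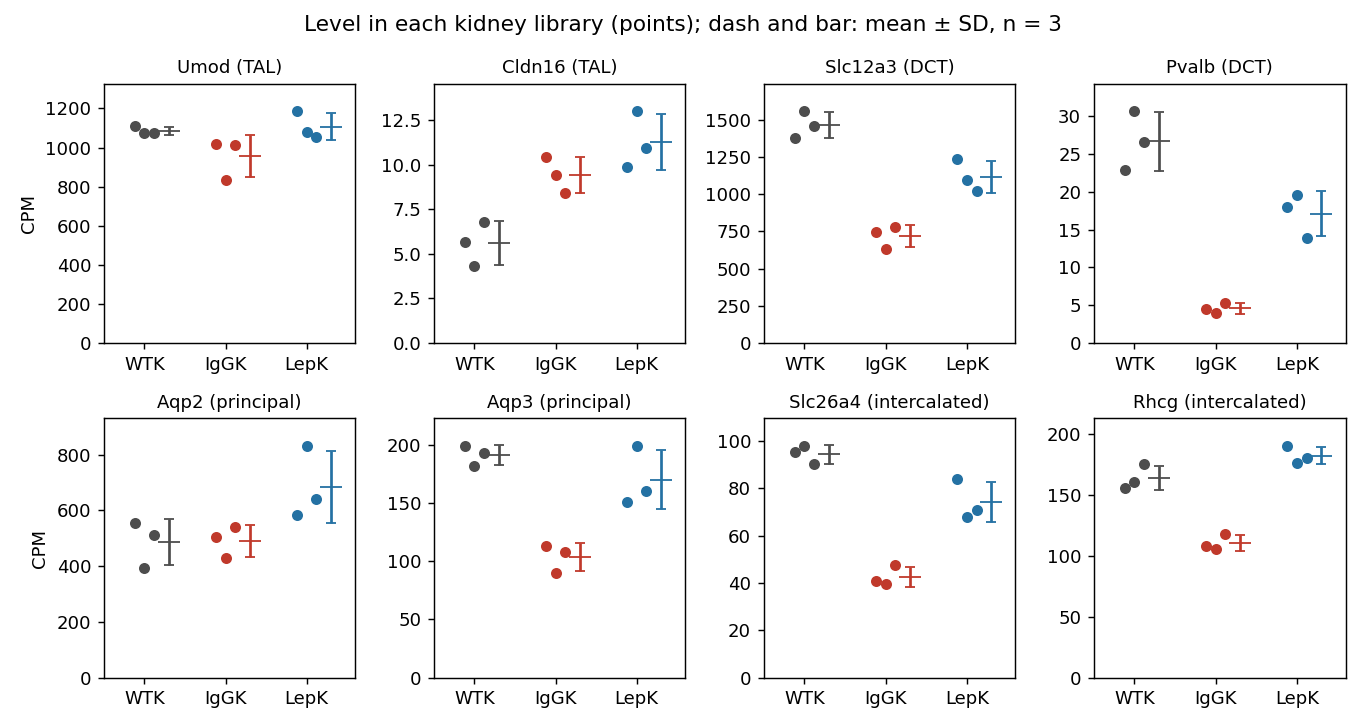
CPM of 8 members in each kidney library (points) with the mean and SD of each group (dash and bar, n = 3), each panel on its own axis from 0. *Slc12a3*, *Pvalb*, *Aqp3*, *Slc26a4* and *Rhcg* have all IgGK points below all WTK and LepK points, *Umod* and *Aqp2* have no called difference between WTK and IgGK, and *Cldn16* is higher in both injured groups.

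Set against WTK kidney, few of the genes passed both thresholds in LepK kidney. In LepK against WTK, 2 of the 34 genes were higher, against 15.2% of all genes tested, and 3 were lower, against 7.3%. The median was 0.06 (all genes 0.03). Under library size scaling, which moves the median of all genes to 0.29, the counts were 11 and 0. That scaling called 4782 higher and 512 lower of the 19593 genes tested. *Cldn16* and *Cldn19* were higher by 1.004 ± 0.18 and 0.87 ± 0.13 on the log2 scale (adjusted p = 8.75e-04 and 3.05e-04, edgeR). *Pvalb*, *Kcnj16* and *Atp6v0a4* were lower by that test (-0.64 ± 0.15, -0.66 ± 0.080 and -0.67 ± 0.096, adjusted p = 0.00494, 6.28e-05 and 2.03e-04, edgeR), and none of these 3 was called under library size scaling. The other 29 genes were not called, 14 of them for the fold threshold alone. With the adjusted p alone, 10 genes were higher and 9 lower, beside 3919 higher and 3650 lower of the 19593 genes tested. Without LepK replicate 1 the calls by both thresholds were 4 higher and 4 lower, beside 3185 higher and 1766 lower of 20238 genes. By contrast, 14 of the 15 proximal tubule genes were lower than in WTK (median -0.93). This comparison shares its libraries with both others, so the 3 sets of calls are not independent.

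A longer list of 44 further genes of the distal nephron, of which 43 passed the filter, was read in the same way. In IgGK against WTK 16 of the 43 fell and 8 rose (median -0.21), beside 15.6% and 21.7% of all genes. The calls farthest from 0 were rises of the tight junction genes *Cldn3*, *Cldn7* and *Cldn4* and falls of *Egf*, *Car12* and *Esrrb*. *Cldn3* went from 10.8 ± 1.2 to 42.3 ± 2.9 CPM (log2 fold change 1.97 ± 0.098), *Cldn7* from 13.6 ± 1.0 to 48.6 ± 3.8 CPM (1.84 ± 0.11) and *Cldn4* from 22.7 ± 0.64 to 79.6 ± 8.1 CPM (1.81 ± 0.10). *Egf*, whose precursor is made in the thick ascending limb and distal convoluted tubule, went from 858 ± 20 to 230 ± 42 CPM (-1.90 ± 0.13). The carbonic anhydrase gene *Car12* went from 391 ± 28 to 155 ± 9.7 CPM (-1.33 ± 0.090) and the nuclear receptor gene *Esrrb* from 24.6 ± 3.2 to 10.7 ± 2.2 CPM (-1.21 ± 0.15). In LepK against IgGK 13 of the 43 rose and 0 fell by edgeR (median 0.24), beside 4.38% and 5.99% of all genes, and 4 were lower at an unadjusted p under 0.05. Among those with the largest changes were the anion exchanger gene *Slc26a7* (1.18 ± 0.24, from 2.25 to 5.11 CPM), *Egf* (1.18 ± 0.12, to 520 ± 64 CPM) and *Esrrb* (0.97 ± 0.15, to 20.8 ± 2.0 CPM). The 3 claudins that rose with injury were at 38.4 ± 2.3, 37.3 ± 4.6 and 62.4 ± 8.6 CPM in LepK, in the same order, and the differences from IgGK were under the fold threshold.

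In lung the list falls into genes that are nearly silent and genes that lung uses. *Cldn16* was at 0 in all 6 lung libraries and *Umod*, *Bsnd* and *Rhcg* in 5 of 6, where a count of 0 allows up to 0.0755 to 0.0997 CPM (3 counts of the library, counting error only). The 3 sodium channel subunits, which clear fluid from alveoli and airways, were the most abundant: *Scnn1a* had 111 FPKM in IgGL, *Scnn1g* 46.0 FPKM and *Scnn1b* 26.9 FPKM, against 28.6, 14.4 and 23.0 FPKM in WTK kidney, on the deposited FPKM scale, which was not tested between organs. *Wnk1* followed with 16.9 FPKM, and 13 of the 34 genes reached 1 FPKM in IgGL. The library size in the deposited FPKM was 1.429 to 1.452 times the total count in IgGL but 1.019 to 1.035 times in WTK. The FPKM scale therefore differs between the organs.

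In LepL against IgGL 24 of the 34 genes passed the filter on low counts. Of these 3 rose, against 1.78% of the 19617 genes tested, and 0 fell, against 2.36%, by edgeR. DESeq2 called 7 higher and 0 lower, beside 1236 higher and 1102 lower of the 19617 genes. At an unadjusted p under 0.05 by edgeR, 1 member was lower. The median of the 24 genes was 0.33, beside 0.0033 for all genes. *Pvalb* had 2.96, 1.53 and 1.93 CPM in IgGL and 6.73, 6.37 and 8.84 CPM in LepL (1.77 ± 0.30, adjusted p = 0.0327 by edgeR). *Trpm6* had 29.3, 25.7 and 20.8 CPM in IgGL and 39.2, 42.9 and 45.2 CPM in LepL (0.75 ± 0.14, adjusted p = 0.0354 by edgeR). *Nr3c2*, the mineralocorticoid receptor, had 7.95, 5.19 and 4.76 CPM in IgGL and 10.6, 14.4 and 17.2 CPM in LepL (1.23 ± 0.26, adjusted p = 0.0398 by edgeR). In all 3 genes each LepL library was above each IgGL library. All 3 calls were lost without any 1 of IgGL replicates 2 and 3 and LepL replicates 1, 2 and 3, leaving 0 members called. Those 5 omissions left 0 to 18 higher and 0 to 4 lower among all genes tested. Without IgGL replicate 1 the same test called 7 members higher and 1 lower, beside 1937 higher and 1602 lower of 20435 genes.

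The remaining genes above 1 FPKM in lung were not called by edgeR, whereas DESeq2 called *Wnk4* and *Slc26a4* higher. *Scnn1a* had 547, 809 and 662 CPM in IgGL and 462, 579 and 421 CPM in LepL (-0.47 ± 0.18, adjusted p = 0.135 by edgeR), with overlap, and it is the gene called lower without IgGL replicate 1. *Scnn1b* had 111, 117 and 82.5 and 106, 129 and 114 CPM and *Scnn1g* 223, 224 and 155 and 206, 252 and 174 CPM, again overlapping (0.17 ± 0.14 and 0.068 ± 0.18). *Wnk4* had 9.34, 7.67 and 7.48 CPM in IgGL and 14.3, 10.9 and 13.8 CPM in LepL, without overlap (0.67 ± 0.18, adjusted p = 0.0658 by edgeR). Neither edgeR nor DESeq2 called any of the 3 sodium channel subunits. *Slc26a4*, which airway epithelium also makes, had 30.3, 18.4 and 13.4 CPM in IgGL and 56.5, 27.0 and 39.2 CPM in LepL, with 1 IgGL library inside the LepL range (0.98 ± 0.33, adjusted p = 0.101 by edgeR). *Cldn10* had 7.73, 7.25 and 8.28 CPM in IgGL and 9.53, 10.2 and 15.6 CPM in LepL, without overlap (0.61 ± 0.22, adjusted p = 0.123 by edgeR). *Wnk1* (533, 582 and 572 and 502, 562 and 460 CPM), *Stk39* (15.1, 19.2 and 20.9 and 21.6, 20.1 and 20.5 CPM) and *Atp6v0a4* (11.6, 16.1 and 17.0 and 13.2, 15.9 and 15.3 CPM) overlapped between the groups. So did *Hsd11b2* (8.62, 6.14 and 3.89 and 10.2, 7.24 and 5.42 CPM) and *Aqp3* (2.77, 1.03 and 4.46 and 2.32, 3.94 and 4.11 CPM). Their log2 fold changes were -0.15 ± 0.12, 0.17 ± 0.15, -0.0073 ± 0.18, 0.29 ± 0.33 and 0.34 ± 0.48.

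Lung epithelial, fibroblast and macrophage genes moved with the same groups. The 8 alveolar type 2 genes summed to 7442 to 13600 CPM in IgGL and 19480 to 26150 CPM in LepL, and 4 rose. The 8 airway secretory and ciliated genes summed to 7480 to 9445 CPM and 12380 to 24140 CPM, and 3 rose. The 8 alveolar type 1 genes summed to 3373 to 4678 and 5269 to 5901 CPM with 0 called, although 7 had an unadjusted p under 0.05. The 10 fibroblast genes summed to 7969 to 9042 and 3697 to 4957 CPM, and 6 fell. Of the 12 macrophage genes 4 fell and 0 rose (median log2 fold change -0.67), although their summed level was 5057 to 7913 CPM in IgGL and 8903 to 9492 CPM in LepL. The 4 pulmonary ionocyte genes summed to 6.05 to 13.3 and 15.6 to 16.4 CPM, with 0 of the 3 tested genes called and 1 at an unadjusted p under 0.05. The ionocyte shares *Foxi1* and proton pump genes with the intercalated cell. *Foxi1* itself was at 0 in 4 of the 6 lung libraries and at most 0.292 CPM, so these sums came mostly from the other listed genes. The part of all these cell types in the lung values of the list was not tested.

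**Figure D5:**
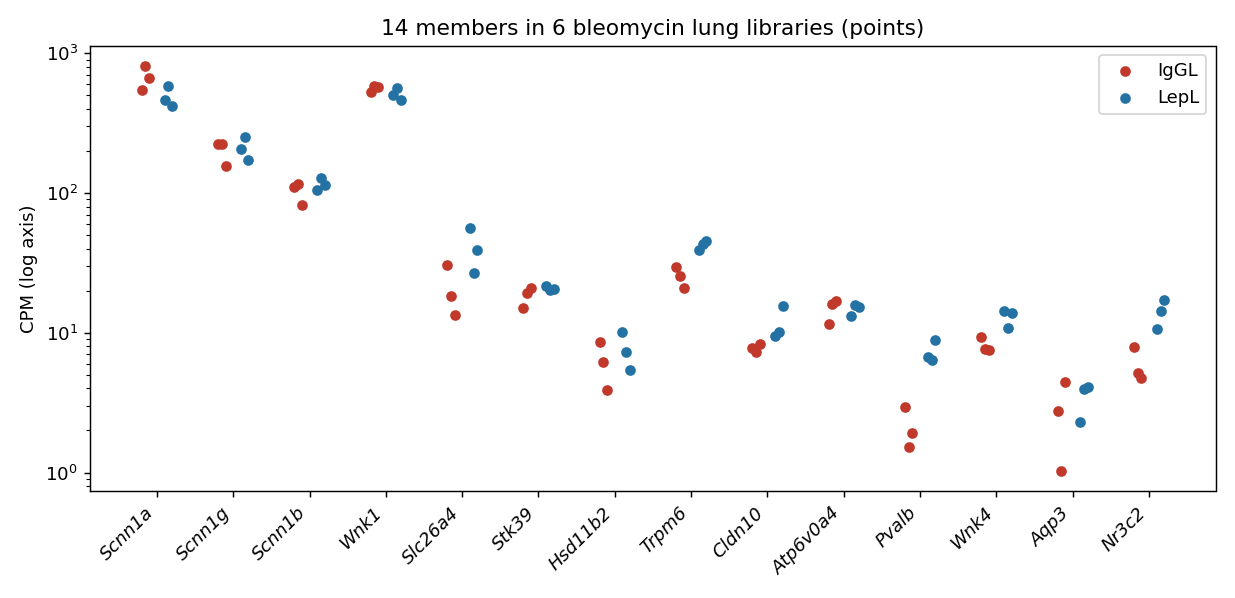
CPM (log axis) of the 14 members described in lung in each IgGL and LepL library (points). *Scnn1a* and *Wnk1* lie highest, at 421 to 809 and 461 to 583 CPM, and *Pvalb*, *Trpm6* and *Nr3c2* have all LepL points above all IgGL points.

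Whether LepAb acted alike on these genes in both organs was tested directly, as the effect in kidney (LepK against IgGK) minus the effect in lung (LepL against IgGL). By an adjusted p under 0.05 alone, 1 of the 34 genes had a higher effect in kidney, against 3.51% of the 21488 genes tested, and 3 had a lower one, against 3.62%. *Scnn1a* differed by 1.15 ± 0.22 on the log2 scale (adjusted p = 0.0152 by edgeR), with LepK above IgGK in kidney and LepL means below IgGL in lung. *Trpm6* differed by -0.95 ± 0.18 (adjusted p = 0.0160 by edgeR), *Nr3c2* by -1.16 ± 0.29 (adjusted p = 0.0347 by edgeR) and *Atp6v1b1* by -1.53 ± 0.42 (adjusted p = 0.0433 by edgeR). The lung level of *Atp6v1b1* was low, 1.05, 0.333 and 0.698 CPM in IgGL and 1.47, 3.12 and 3.80 CPM in LepL. *Scnn1a* and *Trpm6* were called whichever library was left out, whereas *Nr3c2* and *Atp6v1b1* were called only in the absence of IgGL replicate 1 or LepL replicate 1 among the 12 omissions, so that the count of lower effects was 1 without any of the other 10 libraries. Those 10 omissions called 195 to 612 of all genes lower. The count of higher effects was 3 without IgGL replicate 1 and 2 without LepL replicate 2, beside 1853 of 22313 and 376 of 22252 genes. *Pvalb*, higher under LepAb in both organs, was not called in this test. For genes near 0 in lung the difference of effects has no reliable size and is not given.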

How the data were processed

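RNA-seq of poly(A) RNA, prepared without strand information, was measured in 9 kidney and 6 lung libraries. The deposited table held read counts per gene and FPKM made by the authors from the same counts, gene length and a library size of their own. That size was 1.019 to 1.035 times the total count in WTK, 1.403 to 1.458 in IgGK and 1.178 to 1.278 in LepK. In lung it was 1.428 to 1.455 times the total count. The submitters' processing notes name GRCm39 and DESeq2, and the aligner and counter are not given in the sources used here. The 15 columns of the authors' own comparisons (log2 fold changes and p-values) and their group means were not used. Groups follow the sample titles, since some description lines name another column.

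Low genes were removed with filterByExpr of edgeR (at least 10 reads in enough libraries and 15 in total), and libraries were scaled by TMM and compared with glmQLFTest in edgeR 4.0.16 (R 4.3.3). The 3 kidney groups shared a fit, the 2 lung groups another, and the difference of antibody effects came from a fit of the 4 antibody groups. Calls needed an adjusted p under 0.05 and an absolute log2 fold change over 0.5 (for the difference of effects, the adjusted p alone). The scripts were tested on simulated data. FPKM served to compare levels between genes and, without a test, the sodium channel subunits between organs. Alternatives were other scalings, no filter, a replicate block, DESeq2 1.42.0, other thresholds, other sets of libraries and each library left out.

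Values in every library are given for the 3 members of each segment highest in FPKM in WTK, for *Umod*, *Slc12a3* and *Aqp2*, for members called in LepK against IgGK or higher in IgGK, and in lung for members called or at 1 FPKM or more. *Avpr2* and the lung values of *Atp6v1b1* were added after their values were seen. Of the 44 further distal genes, the 6 (IgGK against WTK) and 4 (LepK against IgGK) called genes with the largest changes were to be named, of which 1 is not reported here. The members and lists were chosen with earlier results of these data known. Limits from a count of 0 cover counting error only.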

Additional observations from a re-analysis of the deposited data

Results flagged for a closer look

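The effect of LepAb in kidney minus its effect in lung differed from 0 for 4 of the 34 members by a test of the difference itself in edgeR, 1 higher and 3 lower, beside 3.51% and 3.62% of all genes tested. The log2 differences were 1.15 for *Scnn1a*, -0.95 for *Trpm6*, -1.16 for *Nr3c2* and -1.53 for *Atp6v1b1*. *Scnn1a* and *Trpm6* passed at every omission of 1 library. *Nr3c2* (adjusted p from 0.0038 to 0.0913 over the 12 omissions, edgeR) and *Atp6v1b1* (0.0104 to 0.120) did not. Organ, injury, age and day differ together between the 2 arms and cannot be told apart.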

How the results depend on the processing

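RLE scaling, no filter, DESeq2 and the replicate block gave the same numbers of called members in the 3 kidney comparisons. Library size scaling gave 5 higher and 7 lower members in IgGK against WTK, 6 higher in LepK against IgGK, and 11 higher and 0 lower in LepK against WTK. Of all 19593 genes it called 7803 higher and 1178 lower, 408 and 2185, and 4782 and 512 in the same order. Without a fold threshold there were 25 higher members in LepK against IgGK, and 10 higher and 9 lower in LepK against WTK. With an absolute log2 fold change over 1 there were 0 higher and 5 lower in IgGK against WTK, 2 higher in LepK against IgGK, and 1 higher and 0 lower in LepK against WTK. Of all 19593 genes that threshold called 3061 higher and 1236 lower, 175 and 428, and 1839 and 302 in the same order. Leaving out 1 library in turn gave 0 to 1 lower members in LepK against IgGK (the 1 without LepK replicate 2) and 2 to 4 higher in LepK against WTK. Over all genes tested these omissions called 695 to 1271 lower in the former comparison and 2512 to 3185 higher in the latter. In lung, 7 members were higher without the filter, 7 by DESeq2, 8 with kidney and lung in 1 fit and 0 with the replicate block, and omissions gave 0 to 7 higher and 0 to 1 lower. Over all genes tested, those settings in order called 1515, 1236, 1247 and 1 higher and 1173, 1102, 1046 and 3 lower. Omissions called 0 to 1937 of all genes higher and 0 to 1602 lower. For the effect in kidney minus lung, 3 were higher without the filter and 1 lower with the replicate block, and omissions gave 1 to 3 higher and 1 to 3 lower. Over all genes, 1096 of 37345 were higher without the filter and 538 of 21488 lower with the block. Those omissions called 141 to 1853 of all genes higher and 195 to 1910 lower. Under library size scaling the sign turned in IgGK against WTK for *Umod* (0.25), *Slc12a1* (0.33), *Fxyd4* (0.27) and *Atp6v1b1* (0.0687), in LepK against IgGK for *Cldn19* (-0.017) and in lung for *Atp6v0a4* (0.035). The lung value of *Atp6v0a4* was also above 0 without the filter (0.00609), with the replicate block (0.0058) and with kidney and lung in 1 fit (0.0025). Omissions gave -0.12 to 0.12 for *Aqp2* and -0.0028 to 0.063 for *Hsd11b2* in IgGK against WTK, and in lung -0.060 to 0.86 for *Aqp3*, -0.0895 to 0.19 for *Scnn1g* and -0.16 to 0.095 for *Atp6v0a4*. The cause of these shifts was not tested. Deviations of same-numbered libraries correlated at -0.055 to 0.18, over pairs of which 2 of the 12 exceeded 0.1. Both were IgGK with LepK, 0.182 for replicate 1 and 0.165 for replicate 2, beside -0.035 for replicate 3. Different-numbered pairs of IgGK and LepK lay between -0.190 and 0.029. These values do not settle whether replicate numbers pair the libraries. Of 869 values of named members under alternatives, 775 kept direction and side of the threshold.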
